A study of Mus musculus with 48 samples.

Results

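The stretch of mouse chromosome 10 beyond Tph2, the gene of the brain enzyme of serotonin synthesis, was examined up to the neighbourhood of Ifng. Its loci were chosen by position alone in the table of methylated loci, as every region between the far side of Tph2 and the surroundings of Ifng on GRCm38, the first at chr10:115195057-115195934 and the last at chr10:118597872-118598903. They number 545 of 187695 loci, while the rest of chromosome 10 holds 9244. The limits of the stretch had been set with genotype differences of these libraries already known. All values that compare genotypes below therefore describe the loci and are not a test of where such differences lie.

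DNA methylation was measured by MBD-seq, in which sheared DNA is captured with a methyl-CpG-binding domain (MBD) and sequenced, in amygdala of 48 adult male mice of C57BL/6 background at 4 months of age. The mice were wildtype (Tph2+/+), heterozygous (Tph2+/-) or null (Tph2-/-) for Tph2. Within each genotype 8 animals had no stress (C) and 8 underwent maternal separation (MS), in which the litter spent 3 h of each day away from its mother between postnatal days 2 and 15. Each library came from the amygdala tissue of 1 mouse, the deficiency was constitutive and present in every cell, and all animals were offspring of Tph2+/- parents backcrossed on C57BL/6N. The adults had passed a series of behavioural tests before tissue was taken. Since Tph2 lies on the same chromosome, Tph2 genotype and the origin of the linked DNA cannot be told apart. A count reflects methylation, the number of DNA copies and how their reads were placed, and these cannot be told apart either. In whole tissue, a smaller share of cells that carry a mark and a weaker mark per cell likewise give the same count.

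Methyl groups in mammalian DNA sit mostly on cytosines followed by guanine (CpG), and MBD capture recovers fragments in which several such sites are methylated. Repeated sequences and pseudogenes in the mouse genome are usually densely methylated. The far end of the stretch carries the cytokine genes Ifng and Il22, which code for interferon gamma and interleukin 22 and are active mainly in lymphocytes and little in brain.

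The stretch spans 3.41 Mb and overlaps 84 annotated genes, of which 33 code for proteins. The width of its loci ran from 426 to 4056 bp and had a median of 935 bp. Of the 545, 88 overlapped a coding exon, 8 an untranslated exon, 150 an intron, 36 an exon of a non-coding RNA gene and 22 an exon of a pseudogene, while the rest lay between genes. Towards Ifng the reference contains an array of 10 near-identical pseudogene units. Gm32717, Gm9029, Gm9030 and Gm32802 form the first 4, with the last 2 of these in reversed orientation, and Gm9040, Gm9044, Gm9045, Gm9046, Gm9048 and Gm9049 form the other 6 further on. Il22 precedes the array, and Iltifb, a duplicate of Il22, lies between its 2 parts. Reads from such copies cannot be assigned to 1 of them with certainty, so the values of the array loci are uncertain as to which unit they came from.

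The sequences below are stretches of 200 bases of the reference genome (RefSeq, GRCm38, plus strand), with every CpG in capitals. Except for the second, each is the stretch with the most CpG in its locus. The first lies in the leading locus, in Gm32717, and the second is its counterpart in the unit of Gm9046. They are shown because the first occurs unaltered in 4 units, Gm32717, Gm9029, Gm9030 and Gm32802, and with the same 2 substitutions, T29C and G55A, in the other 6, counting from 1 at the first base. The third comes from another part of Gm32717. It matched exactly in Gm32802 and with 9 differences in Gm9040 and Gm9049, and no further match with at most 10 differences was found in the array. The last 2 come from loci with no copy in the reference, near Gm32235 and in an intron of Ifngas1. The Ifngas1 locus, the other called loci outside the array and the flanks named below were picked after their values were seen.
Gm32717, chr10:118239153-118239352: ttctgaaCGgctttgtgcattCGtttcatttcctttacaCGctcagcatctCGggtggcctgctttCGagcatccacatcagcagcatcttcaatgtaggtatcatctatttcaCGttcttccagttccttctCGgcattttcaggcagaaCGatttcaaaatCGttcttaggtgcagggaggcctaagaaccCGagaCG
Gm9046, chr10:118341628-118341827: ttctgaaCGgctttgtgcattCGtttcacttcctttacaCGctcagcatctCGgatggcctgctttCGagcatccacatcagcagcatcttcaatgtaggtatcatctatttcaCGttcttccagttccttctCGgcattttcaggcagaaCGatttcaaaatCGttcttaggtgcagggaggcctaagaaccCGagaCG
Gm32717, chr10:118240670-118240869: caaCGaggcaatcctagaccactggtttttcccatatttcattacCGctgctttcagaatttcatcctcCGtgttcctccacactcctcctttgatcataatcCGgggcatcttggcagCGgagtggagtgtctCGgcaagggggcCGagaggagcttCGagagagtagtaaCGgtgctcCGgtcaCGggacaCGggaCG
near Gm32235, chr10:117555559-117555758: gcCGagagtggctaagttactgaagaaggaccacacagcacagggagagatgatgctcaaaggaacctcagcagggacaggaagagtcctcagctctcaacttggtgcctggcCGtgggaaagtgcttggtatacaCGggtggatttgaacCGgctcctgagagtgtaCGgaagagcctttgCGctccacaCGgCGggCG
Ifngas1 intron, chr10:118535236-118535435: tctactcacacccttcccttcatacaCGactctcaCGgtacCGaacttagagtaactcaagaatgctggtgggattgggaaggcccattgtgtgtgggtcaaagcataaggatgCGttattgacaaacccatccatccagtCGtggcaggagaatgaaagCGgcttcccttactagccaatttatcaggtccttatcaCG

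The 48 libraries held 7.724 to 14.134 Mcounts (1 Mcount is 1e+06 counts), of which 8710 to 26017 fell on the stretch. Values are given as counts per 1e+06 counts (CPM) after scaling by the trimmed mean of M-values (TMM). The Tph2-/- MS libraries 3 and 7 had the lowest totals of their group and stayed out of the fits, but their values are included in every range below. Replicate 3 of this group had the fewest counts on the stretch. It stood apart from its group in several of the values that follow. Its total of 8.09 Mcounts was near the 8.23 of replicate 7. After TMM scaling, 3 counts equal 0.649 CPM in replicate 3 and 0.403 CPM in replicate 7. High CPM of replicate 3 thus depend on its scaling, and its values by total counts alone are not given.

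The genotype question was whether Tph2 allele dose went with methylation along the chromosome. In Tph2-/- mice, 25 loci of the stretch were lower than in Tph2+/+ mice at an adjusted p under 0.05 (edgeR's quasi-likelihood test over all loci, averaged over C and MS), and none was higher. They are termed called loci here, and 0.0139% of all loci were called lower in this comparison. Since the stretch was chosen for this difference, nothing is read from the count. The log2 fold changes of the 25 ranged from -2.65 to -0.65 with a median of -0.98, and the Tph2+/- mice showed -0.92 to -0.19 at the same loci with a median of -0.41. The other 520 loci had a median of -0.001, and 266 of them were on the lower side. At the ends of the stretch, the first locus inside (chr10:115195057-115195934) had -0.39 ± 0.18 (log2 fold change ± SE) and the nearest outside it, on the Tph2 side (chr10:115181251-115183059), -0.11 ± 0.11. The last locus inside (chr10:118597872-118598903) had -0.04 ± 0.14, and the next one beyond (chr10:118600933-118602129) had 0.16 ± 0.12. At the threshold of the call, the last called locus had an adjusted p of 0.000537 and the first uncalled locus, chr10:118079331-118080498, had 0.05052 by edgeR with a log2 fold change of -0.71.

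**Figure D1:**
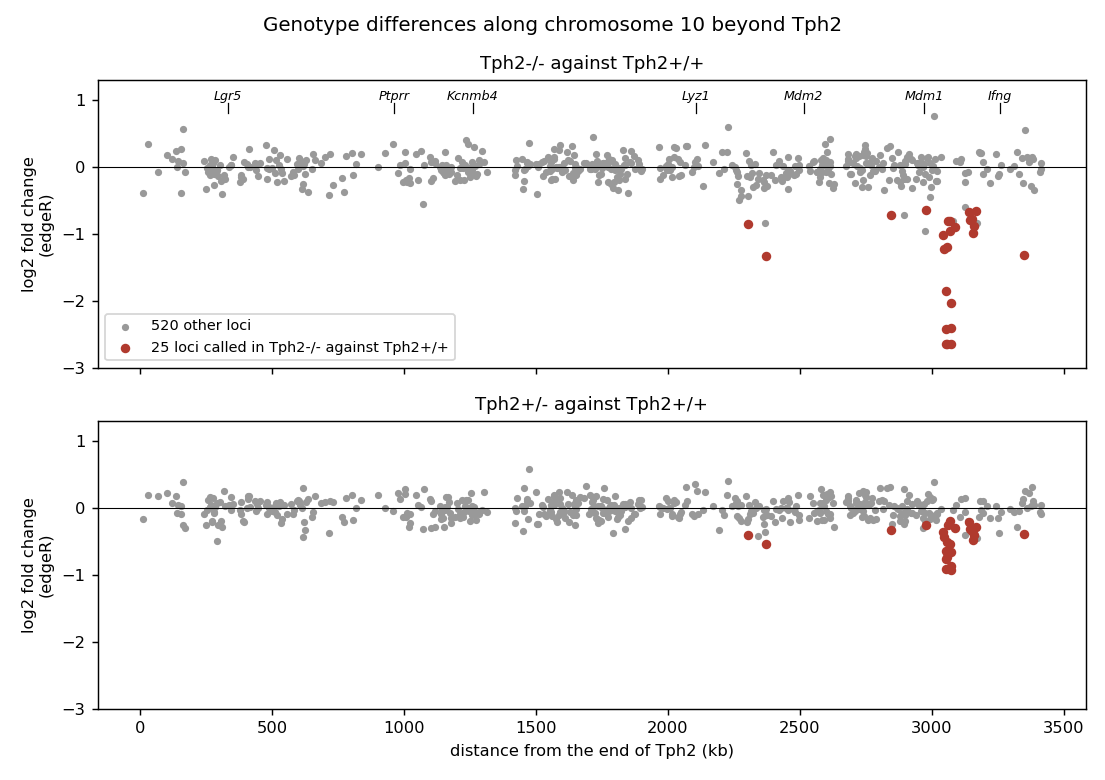
Log2 fold change (edgeR) of each of the 545 loci against its distance in kb from the end of Tph2, for Tph2-/- (top) and Tph2+/- (bottom) against Tph2+/+. The 25 called loci, in red, begin 2304.6 kb from Tph2 and reach -2.65 in Tph2-/-, with smaller differences at the same loci in Tph2+/-.

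On the stretch, the first called locus lay 2304.6 kb from the end of Tph2 and the last 3350.0 kb. Besides these 25, a single other locus of the whole table was called in this comparison. It lay close to Tph2 on the opposite side of the gene, outside the stretch (chr10:115072171-115073639), and its log2 fold change was -1.04. The 331 loci nearer to Tph2 than the first called locus had a median log2 fold change of -0.001, with 171 of them lower. The 10 loci beyond the last called locus had a median of 0.06, with 4 lower. Between the first and the last called locus, 179 of 204 loci were not called, and these had a median of -0.015 with 91 lower. Called and uncalled loci were thus interspersed. In Tph2 itself, 15 loci were measured and their summed CPM had group means of 37.67 to 41.23, with ranges that overlapped among all 6 groups.

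Most called loci belonged to a cluster of 127.5 kb, from 118226899 to 118354448, in which 20 of 28 loci were called. The array of pseudogenes provided 17 of these 20, out of 18 array loci that have 5 or more copies in the stretch. The remaining array locus, 501 bp from Gm9049 (chr10:118354621-118355094), had a log2 fold change of -0.84 ± 0.21 and an adjusted p of 0.7556 by edgeR. Loci outside the array in the same cluster included Gm9585 and Gm9035, a pair of pseudogenes that mirror each other. A locus beside Gm9585 (chr10:118226899-118227884) had -1.02 ± 0.16 and its exact inverted copy beside Gm9035 (chr10:118271688-118272550) had -0.90 ± 0.15. The next pair outwards, chr10:118219960-118221071 and chr10:118278295-118279548, are 99.91% identical to each other. They had 0.15 ± 0.13 and 0.09 ± 0.13. Thus neither locus of this pair was lower, and of the opposite-strand pairs still further out none was called. Inside the called pair, a locus in Gm9585 (chr10:118232979-118233539) had -1.22 ± 0.21 and was called, while its counterpart that starts at 118265833 had -0.81 and an adjusted p of 0.3821 by edgeR. The sequence of this locus is 100% identical in its counterpart. Reads of such mirrored pairs cannot be assigned to 1 side with certainty, so a call on 1 side only does not tell the sides apart. 

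Within the array, the loci of Gm32717 and Gm32802 had the least signal left in Tph2-/- mice. All 7 loci of this pair were called. In C mice, their Tph2-/- mean was 7.07% to 23.996% of the Tph2+/+ mean, and the Tph2+/- mean was 47.006% to 65.8%. In MS mice, the corresponding ranges were 23.1% to 35.5% and 49.04% to 68.0%. The 4 loci of Gm9029 and Gm9030 kept 41.9% to 55.1% in Tph2-/- C mice and 44.9% to 62.3% in Tph2-/- MS mice. The 6 called loci of the units from Gm9040 to Gm9049 kept 49.9% to 65.7% in C and 51.0% to 61.3% in MS. In both conditions the highest Tph2-/- percentage at the Gm32717 and Gm32802 loci was below the lowest at the other units.

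The leading locus (chr10:118238775-118239834, in Gm32717, the first of the printed sequences) had 2.94 CPM in the lowest, 4.82 in the median and 6.34 in the highest of the 8 Tph2+/+ C libraries. In Tph2+/- C libraries the values were 2.44, 3.22 and 4.51, and in Tph2-/- C libraries 0.590, 1.13 and 1.81. The Tph2-/- C and Tph2+/+ C libraries did not overlap, and the Tph2+/- C libraries lay above all Tph2-/- C libraries and overlapped the lower end of Tph2+/+. After MS the values were 4.18, 5.46 and 6.33 in Tph2+/+ mice, 2.35, 3.30 and 4.71 in Tph2+/- mice and 0.846, 1.70 and 3.90 in Tph2-/- mice. The highest Tph2-/- MS library was replicate 3, whose value rests on 18 counts. The log2 fold change was -1.85 ± 0.14 for Tph2-/- and -0.65 ± 0.12 for Tph2+/- against Tph2+/+.

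The counterpart of this locus at the other arm (chr10:118259603-118260692, in Gm32802) is identical to it in sequence. It ranged from 3.01 to 7.61 CPM in Tph2+/+ C mice with a median of 5.20, from 1.63 to 3.27 in Tph2+/- C mice with a median of 2.55, and from 0.549 to 1.35 in Tph2-/- C mice with a median of 1.02. After MS the medians were 5.41, 2.98 and 2.12 in the same order of genotypes. The 3 genotypes were thus in the same order as at the leading locus, with Tph2-/- C below every other C library.

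Among the 10 called loci with the smallest p, the lowest Tph2-/- percentages were found at a mirrored pair around the third printed sequence. At chr10:118240183-118241196 in Gm32717, Tph2+/+ C libraries ranged from 3.08 to 6.65 CPM with a median of 4.97, and Tph2+/- C libraries from 0.390 to 4.27 with a median of 2.23. Tph2-/- C libraries had a median of 0.392 and a highest value of 1.15, and the lowest, replicate 5, had 0 counts, which allows up to 0.253 CPM (3 counts, counting error only). Its log2 fold change of -2.65 ± 0.22 corresponded to 10.5% of the Tph2+/+ mean in C mice and 23.1% in MS mice. The identical copy at chr10:118258290-118259228 in Gm32802 had a median of 4.18 CPM in Tph2+/+ C, 2.32 in Tph2+/- C and 0.329 in Tph2-/- C libraries. In MS mice its medians were 4.80, 2.40 and 1.06, and the Tph2-/- MS libraries ran from 0 counts in replicate 1, which allows up to 0.285 CPM, to 3.46 CPM in replicate 3. Every Tph2-/- library lay under the lowest Tph2+/+ library of its own condition at this locus. The lowest percentage of all 25 in C mice, 7.07%, came from a locus with fewer counts beside Gm32717 (chr10:118241257-118241919, picked after its values were seen). There 6 of the 8 Tph2-/- C libraries had 0 counts, which allows up to 0.215 to 0.303 CPM per library, and the Tph2+/+ C median was 1.78 CPM.

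**Figure D2:**
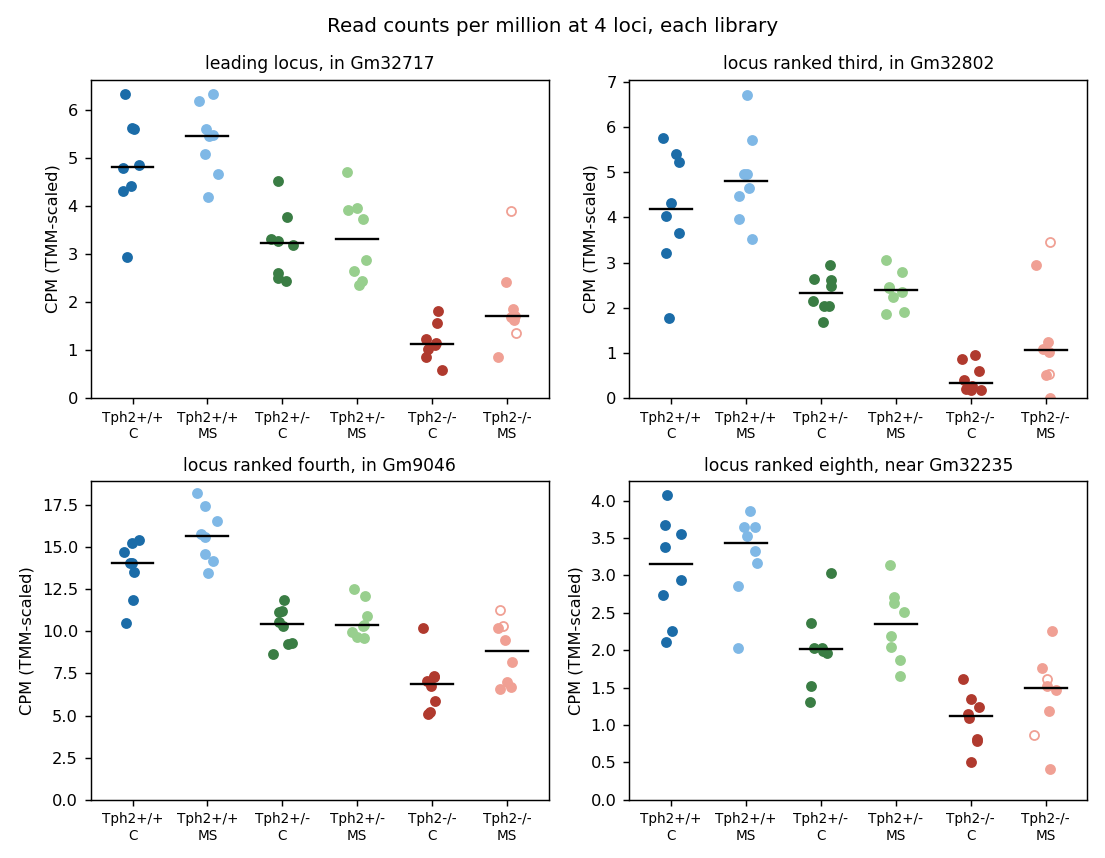
CPM of every library, by group, at 4 called loci (points, with black lines for group medians and open circles for the 2 Tph2-/- MS libraries outside the fits). At the leading locus the group medians fall from 4.82 through 3.22 to 1.13 in C mice, and at the Gm9046 locus from 14.1 through 10.4 to 6.89.

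The unit of Gm9046 had more signal and a smaller relative loss. At its locus (chr10:118340784-118344240), which covers the second printed sequence, Tph2+/+ C libraries ranged from 10.5 to 15.4 CPM with a median of 14.1. Tph2+/- C libraries ranged from 8.63 to 11.8 with a median of 10.4, and Tph2-/- C libraries from 5.10 to 10.2 with a median of 6.89. The highest Tph2-/- C value, from replicate 6, lay within the Tph2+/- range. After MS the medians were 15.7, 10.4 and 8.84, and all Tph2-/- and Tph2+/- libraries were under the lowest Tph2+/+ library. The log2 fold changes were -0.98 ± 0.09 for Tph2-/- and -0.49 ± 0.09 for Tph2+/-.

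The other array loci among the 10 with the smallest p behaved alike. The locus in Gm9048 (chr10:118346710-118349742) had medians of 11.35, 9.28 and 6.00 CPM in Tph2+/+, Tph2+/- and Tph2-/- C mice, and 13.55, 9.335 and 8.155 in MS mice. In Gm9044 (chr10:118330355-118332914) the C medians were 10.3, 8.21 and 6.22 and the MS medians 11.35, 7.99 and 6.55. Those loci overlapped between Tph2+/- and Tph2-/- mice. The locus in Gm9029 (chr10:118244249-118245233) had C medians of 4.49, 3.66 and 1.69, and that in Gm9030 (chr10:118252150-118253773) had 5.84, 4.00 and 3.00. The remaining 8 loci of the array that were called had log2 fold changes of -2.65 to -0.66.

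Outside the cluster, 5 loci were called, and 3 of the 25 had no copy in the reference. The most distinct of these 3 lay between genes, 3219 bp from the non-coding RNA gene Gm32235 (chr10:117554938-117555914). Its Tph2+/+ C libraries ranged from 2.11 to 4.07 CPM with a median of 3.16, its Tph2+/- C libraries from 1.2996 to 3.03 with a median of 2.01, and its Tph2-/- C libraries from 0.510 to 1.62 with a median of 1.12. Tph2-/- and Tph2+/+ C libraries did not overlap. After MS the medians were 3.43, 2.35 and 1.49, with overlap. A neighbouring locus, chr10:117552065-117553034, had a log2 fold change of -0.84 ± 0.18 but missed the call with an adjusted p of 0.05140 by edgeR.

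Mdm1, which codes for a microtubule-binding protein of the centriole, was the only one of 31 named protein-coding genes with a called locus. It held 9 loci, and the called one (chr10:118163161-118165097) overlapped a coding exon. Medians there were 6.52, 5.98 and 4.44 CPM in Tph2+/+, Tph2+/- and Tph2-/- C mice and 7.56, 5.78 and 4.73 in MS mice, and the genotypes overlapped in both conditions. An intronic locus of the same gene (chr10:118160188-118160811) had -0.96 ± 0.20 and an adjusted p of 0.05200 by edgeR. The Mdm1 locus with the highest count (chr10:118157897-118160129) had -0.11 ± 0.09. Neighbouring loci of 1 gene thus differed in how far they moved.

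The other called locus without a copy lay in an intron of Ifngas1, a long non-coding RNA gene next to Ifng (chr10:118535058-118535754). Its medians were 2.01, 1.35 and 0.909 CPM in C mice and 1.71, 1.27 and 0.636 in MS mice. A second intronic locus of Ifngas1 (chr10:118536791-118537706) had 0.55 ± 0.16. The remaining pair of called loci outside the cluster consisted mostly of repeats. One (chr10:117489588-117491151), with 70 copies elsewhere in the genome, had medians of 6.23, 4.48 and 3.49 CPM in C mice. The other, in an intron of the non-coding RNA gene Gm32663 (chr10:118030298-118033370), had 15.2, 13.2 and 8.29 CPM in C mice, and 31.6 CPM in Tph2-/- MS replicate 3.

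None of the loci at the cytokine genes was called. Il22 and Iltifb share near-identical sequence, so their reads may have been split between them. In Il22, 2 loci had log2 fold changes of -0.06 and -0.21, and in Iltifb 2 loci had 0.07 and 0.11. The Il22 locus with the highest count (chr10:118204343-118205958) had medians of 5.96, 5.48 and 5.75 CPM in C mice, and its Iltifb counterpart (chr10:118293918-118295278) had 4.49, 4.33 and 5.49. At the only Ifng locus (chr10:118440649-118441792) the medians were 3.09, 2.35 and 2.39 CPM in C mice and 2.60, 1.58 and 2.61 in MS mice, with a log2 fold change of -0.11 ± 0.15 for Tph2-/- and -0.37 ± 0.15 for Tph2+/-. The groups overlapped at these 3 loci. Il22 and Ifng flank the called cluster and Iltifb lies within it.

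The genes nearer to Tph2 held many loci without a call. Of the 31 named protein-coding genes, 27 had loci, 216 in all. Lgr5, a receptor for R-spondins, had 26 loci with log2 fold changes of -0.40 to 0.15. Ptprr, a tyrosine phosphatase, had 19 with -0.55 to 0.34, and Kcnmb4, a subunit of calcium-activated potassium channels, had 17 with -0.15 to 0.40. The locus with the highest count had 0.15 ± 0.13 in Lgr5, 0.21 ± 0.14 in Ptprr and 0.02 ± 0.10 in Kcnmb4. Tbc1d15, a regulator of Rab GTPases, had a single locus with 0.34 ± 0.14, and the single locus of the lysozyme gene Lyz1 had 0.08 ± 0.21. No locus was measured in Mdm2, Rap1b, Lyz2 or Thap2.

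By allele dose, the Tph2+/- mean lay between the Tph2+/+ and the Tph2-/- mean at 25 of 25 called loci in both C and MS. These loci were selected for low Tph2-/- against Tph2+/+ values in the same libraries, and 17 of them are array loci that share sequence. The count and the shares that follow thus describe the called loci and are not a test of allele dose. The share of the Tph2-/- loss already present in Tph2+/- mice had a median of 0.45 in C, from 0.112 to 0.628, and of 0.556 in MS, from 0.138 to 0.7. In Tph2+/- against Tph2+/+ mice, 4 loci were called lower, beside 0.00213% of all loci. They were the leading locus, both large loci of Gm32802 and the Gm9046 locus. In Tph2-/- against Tph2+/- mice 7 were called lower, beside 0.00373% of all loci. Of these 7, 5 were in Gm32717 and Gm32802, and the others were in Gm9029 and Gm9046. With all 48 libraries in the fit the 4 became 1, and the 7 ranged from 4 to 13 over the alternatives tried.

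**Figure D3:**
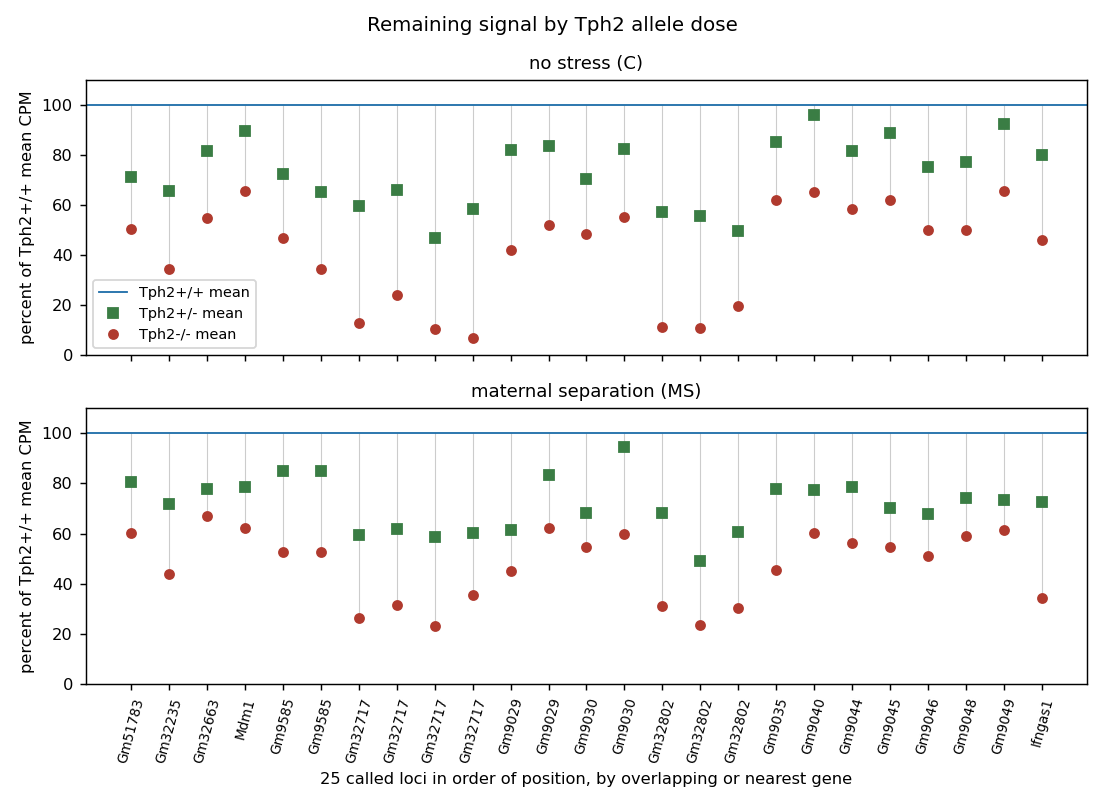
Mean CPM of Tph2+/- (squares) and Tph2-/- mice (circles) as a percentage of the Tph2+/+ mean at the 25 called loci in order of position, for C (top) and MS (bottom). Tph2+/- lies between the other genotypes at every locus, and Tph2-/- reaches 7.07% in C and 23.1% in MS at loci of Gm32717.

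Counted by library, 14 loci of the stretch had every Tph2-/- C library under the lowest Tph2+/+ C library, which held for 0.0133% of all loci. In MS mice there were 8, against a background of again 0.0133%. For Tph2-/- under Tph2+/- libraries there were 5 in C (0.00906% of all loci) and 0 in MS (0.0107%). For Tph2+/- under Tph2+/+ there were 1 in C (0.00266%) and 2 in MS (0.00906%). Within C alone, 20 loci were called lower in Tph2-/- against Tph2+/+ mice (0.0107% of all loci by edgeR), and within MS alone 14 (0.00799%). The count within MS fell to 5 when the libraries numbered S18 to S26 were left out, and also to 5 when only both groups of the contrast entered the fit. Leaving out S18 to S26 kept 3 Tph2-/- MS and 5 Tph2+/+ MS libraries, so fewer calls cannot be told apart from smaller groups.

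Summed over the 25 called loci, Tph2+/+ C libraries had 124.1 to 162.3 CPM with a median of 153.9, Tph2+/- C libraries 106.03 to 127.4 with a median of 114.5, and Tph2-/- C libraries 66.43 to 87.77 with a median of 70.79. After MS the ranges were 141.5 to 181.4 with a median of 165.5, 109.5 to 132.9 with a median of 116.7, and 72.76 to 137.0 with a median of 84.92. In C mice the Tph2-/- libraries were below all others, and the Tph2+/+ and Tph2+/- ranges overlapped. In MS mice replicate 3 of Tph2-/-, whose CPM depend on its scaling as given above, exceeded the highest Tph2+/- library. The other Tph2-/- MS libraries lay below all Tph2+/- MS libraries. The other 520 loci summed to 1598 to 1768 CPM over all 48 libraries, with overlap between all groups.

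**Figure D4:**
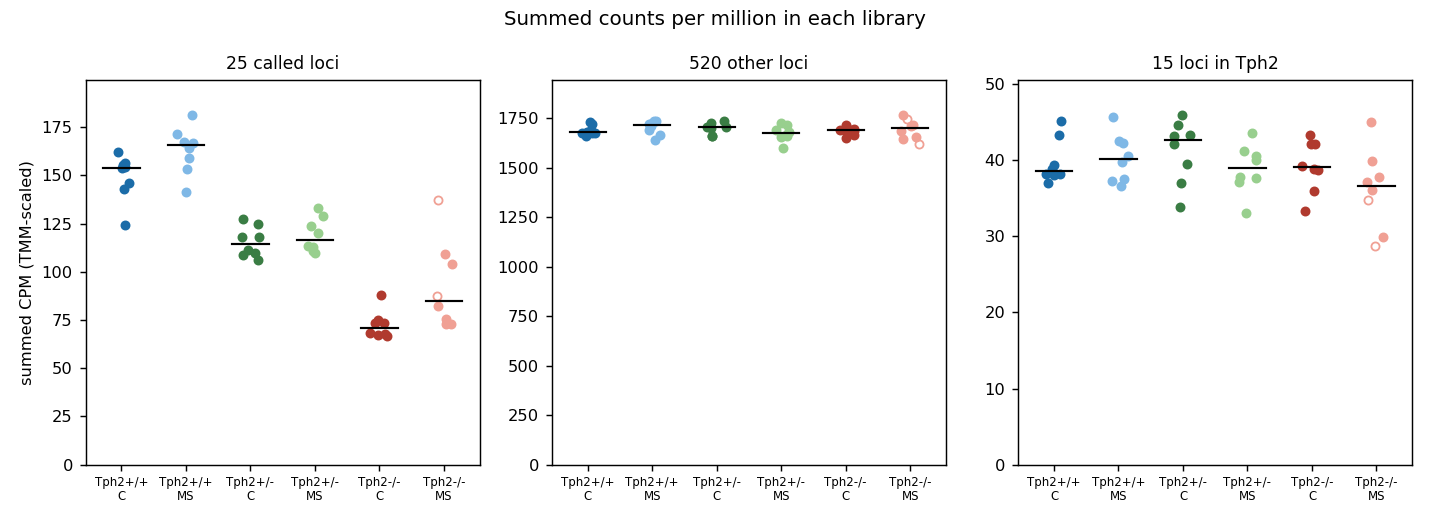
Summed CPM of each library, by group, over the 25 called loci (left), the 520 other loci (middle) and the 15 loci in Tph2 (right), with black lines for group medians and open circles for the 2 libraries outside the fits. Medians of the called loci step from 153.9 through 114.5 to 70.79 in C mice, while the other panels overlap between groups.

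The order of sample numbers separates C from MS, since C libraries carry the numbers S1 to S17 and S42 to S48 and MS libraries S18 to S41. Rearing and sample number therefore cannot be told apart. Within each range of numbers the genotypes kept their order at the called loci. Median sums were 154.3, 114.5 and 68.38 CPM for Tph2+/+, Tph2+/- and Tph2-/- in S1 to S17, and 148.7, 118.0 and 73.20 in S42 to S48. They were 171.5, 119.9 and 95.72 in S18 to S26, and 164.2, 116.7 and 80.17 in S27 to S41.

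Whether MS changed methylation on the stretch was tested independently of the choice of loci. No locus was called by edgeR at an adjusted p under 0.05 for MS against C averaged over genotypes, where 0.0128% of all loci were called. At an unadjusted p under 0.05, 57 of the 545 loci passed (10.5%), against 12.2% of all loci, and DESeq2 called 2, beside 0.653% of all loci (1226 loci). These 2, named after their values were seen, lay in Lgr5 and in Gm9048. Within genotypes, edgeR called 0 loci (0.0% of all loci in each case), as did DESeq2 and limma voom. The counts at an unadjusted p under 0.05 were 25 in Tph2+/+ (4.59%, against 6.52% of all loci), 21 in Tph2+/- (3.85%, against 4.36%) and 40 in Tph2-/- mice (7.34%, against 7.11%). The interactions GE1 and GE2 compare the MS effect of Tph2+/- and of Tph2-/- mice, respectively, with the one seen in Tph2+/+ animals. No locus was called for either by any of the 3 tools (0.0% of all loci by edgeR), and 23 and 16 passed at an unadjusted p under 0.05 (4.22% and 2.94%, against 3.71% and 3.36% of all loci). The share on the stretch was above that of the whole table in Tph2-/- mice and for GE1 and below it in the other 4 comparisons, and these differences were not tested.

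The locus with the smallest p in each comparison was named by rule. In Tph2+/+ mice it was chr10:117983240-117984628, between genes, with 2.52, 3.62 and 4.14 CPM (lowest, median and highest) in C and 4.29, 5.325 and 7.17 in MS. Those groups did not overlap, and the log2 fold change was 0.61 ± 0.15, but the adjusted p was 0.6047 by edgeR. The same locus had the smallest p for GE1, with -0.73 ± 0.21 and an adjusted p of 1.0 by edgeR. In Tph2+/- mice chr10:117543592-117544347 had a median of 2.49 CPM in C and 1.398 in MS, with an adjusted p of 0.9997 by edgeR, and the values overlapped. In Tph2-/- mice chr10:118188837-118189511, in the non-coding RNA gene Gm40775, had a median of 2.34 CPM in C and 1.43 in MS, with an adjusted p of 0.6314 by edgeR. For GE2 it was chr10:115304894-115305610, in an intron of the small GTPase gene Rab21, with 1.68 ± 0.43 and an adjusted p of 1.0 by edgeR. Averaged over genotypes it was chr10:117389392-117390547, between genes, with 0.36 ± 0.11 and an adjusted p of 0.1677 by edgeR.

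Summed CPM of the called loci was also tested for MS against C, separately by genotype. The difference was 13.79 CPM in Tph2+/+ mice (163.1 ± 12.06 in MS and 149.3 ± 11.8 in C, mean ± SD, n = 8 each, exact two-sided permutation test, p = 0.03279, adjusted 0.1249). In Tph2+/- mice it was 3.587 CPM (exact permutation p = 0.3969, adjusted 0.3969). In Tph2-/- mice it was 13.77 CPM (86.12 ± 16.23, n = 6, and 72.35 ± 7.008, n = 8, exact permutation p = 0.04163, adjusted 0.1249). None passed after adjustment over the 6 sums tested. With total counts alone as scaling, the difference was 0.835 CPM in Tph2+/+ mice (exact permutation p = 0.885) and 9.836 in Tph2-/- mice (exact permutation p = 0.08025). For all 545 loci the differences were 27.1, -20.65 and 25.97 CPM, with exact permutation p of 0.152, 0.1834 and 0.2597.

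At Gm32717 and Gm32802, the Tph2-/- MS libraries were unequal. Summed over their 7 loci, Tph2-/- C libraries had 2.04 to 4.56 CPM, and Tph2+/- C libraries 8.84 to 14.9. Of the Tph2-/- MS libraries, replicates 2, 3 and 5 had 10.5, 14.7 and 10.3 CPM, and the other 5 had 4.21 to 6.27. The Tph2+/- MS libraries had 12.1 to 17.7 CPM, so that replicate 3 lay within their range and replicates 2 and 5 lay below it and above all Tph2-/- C libraries. Replicate 3, whose CPM depend on its scaling as given above, was outside the fits, and replicates 2 and 5 were inside. At the Tph2 loci, replicates 2 and 3 had the lowest sums of the group with 29.94 and 28.79 CPM, and replicate 5 had the highest with 45.04. The part of these libraries in the MS difference was not tested apart from the alternatives that follow.

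The 7 loci were grouped after their genotype values were seen. They include exact copies of each other, so their values are not independent and nothing is read from counts among them. The MS effect in Tph2-/- mice was positive at all 7, with a median log2 fold change of 0.98, from 0.53 to 2.11. At an unadjusted p under 0.05, 6 passed (background 7.11%). The 2.11 came from the locus beside Gm32717 (chr10:118241257-118241919), where 6 of the 8 Tph2-/- C libraries had 0 counts. At chr10:118238090-118238667 and at chr10:118257496-118258288, 3 Tph2-/- C and 3 Tph2-/- MS libraries had 0 counts, so the values of these loci also rest on few counts. The smallest adjusted p among the 7 was 0.6349 by edgeR. With replicates 2 and 3 left out and replicate 7 kept, the median was 0.73 and 4 passed the unadjusted limit. In Tph2+/+ mice the median of the same 7 loci was -0.04 and in Tph2+/- mice 0.06. At the 18 other called loci, the MS effect in Tph2-/- mice had a median of 0.17, with 3 past the unadjusted limit. The 520 loci that were not called had a median of -0.01. Over all 25 called loci, the loss in Tph2-/- against Tph2+/+ was smaller in MS than in C at 18, and GE2 had a median of 0.24. Without the 7 loci, GE2 was positive at 11 of the 18 other called loci, beside 261 of the 520 loci that were not called. Nothing is read from the count over all 25. An unadjusted p under 0.05 for GE2 was reached at 4 loci (background 3.36%), and none passed the adjustment. All 4 were among the 7 loci of Gm32717 and Gm32802. The called loci outside these 7 had a GE2 median of 0.12, with 0 past the unadjusted limit.

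**Figure D5:**
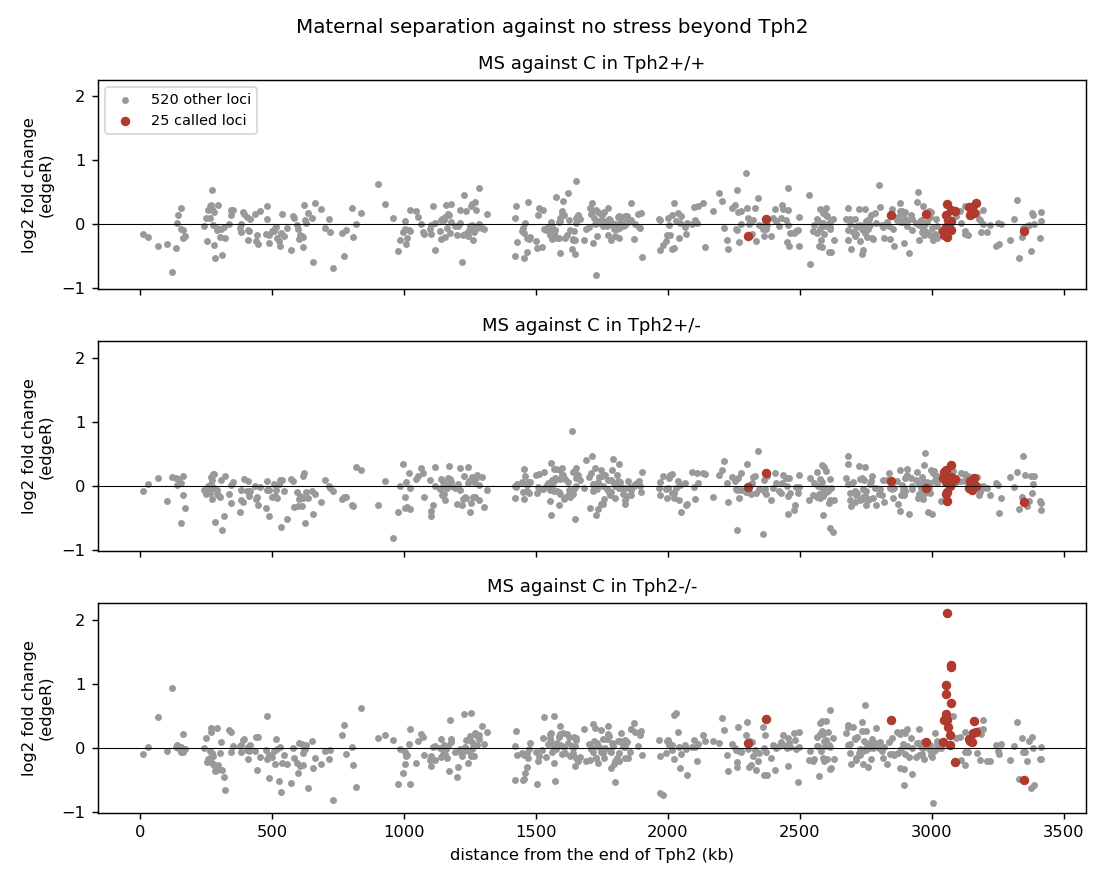
Log2 fold change (edgeR) of MS against C for each of the 545 loci against distance in kb from the end of Tph2, in Tph2+/+ (top), Tph2+/- (middle) and Tph2-/- mice (bottom), with the 25 called loci in red. In Tph2-/- mice the loci of Gm32717 and Gm32802 reach 2.11, at a locus beside Gm32717 with 0 counts in 6 of the 8 Tph2-/- C libraries. No locus passed the adjusted test in any panel.

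Beyond position, sequence features of the called loci were compared with the rest, with no test. Their median CpG density was 2.205 per 100 bp, against 1.891 for loci that were not called, and their median width was 1090 bp, against 915.5 bp. The median share of masked repeats was 23.61% and 21.14%. Since 17 of the called loci were array loci of near-identical units, these medians do not describe 25 independent sequences. For duplication, of the 25, 22 had a copy in the reference, and of all 545 loci 53 had a copy.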

How the data were processed

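The authors sequenced MBD-captured DNA, aligned it with Bowtie2 2.1.0 to GRCm38 and counted reads in peak regions with DiffBind 2.0.9, and the deposited table holds these unnormalised read counts per locus for 48 libraries. Groups and replicate numbers were taken from the labels. All 187695 loci were fitted with edgeR 4.0.16 (quasi-likelihood test, TMM scaling, 6 group means, Benjamini-Hochberg adjustment over all loci, threshold 0.05) in R 4.3.3. The study left 2 Tph2-/- MS libraries out without naming them in the sources used here, so the 2 with the lowest totals, replicates 3 and 7, were left out. CPM used the TMM scaling of all 48 libraries. Group means and SD cover the libraries in the fit. Sums were tested with exact two-sided permutation tests over all regroupings (numpy 2.4.6). Copies were found with minimap2 2.31-r1302. DESeq2 1.42.0 and limma 3.58.1 served as alternatives. Simulated counts with 100 loci changed by -1 on the log2 scale between Tph2-/- and Tph2+/+ checked the fit, which recovered 81. Another 100 loci were raised by 1 in Tph2+/+ MS alone, and 73 were recovered for MS against C in Tph2+/+. Unchanged loci that were called numbered 4 in the genotype and 8 in the rearing comparison. The loci named were the ends of the stretch, the 10 called loci with the smallest p, fixed genes and the locus with the smallest p per rearing comparison. The members and gene lists were chosen with earlier results of these data known. The labels state no pairing by replicate number, and none was used in the main fit. p-values measure the spread between mice, 1 library each, and take no account of litter. Whole litters, not single mice, were assigned to MS or C. The labels name no litter, so mice of a group may share one.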

Additional observations from a re-analysis of the deposited data

Results flagged for a closer look

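Of 96 groups of 8 libraries checked for a single library far from the others, 4 exceeded the critical gap of 0.526 of the range, and chance flags about 1 in 20 groups. Replicate 6 of Tph2-/- C had the highest summed CPM of its group over the called loci, 87.77 against a group median of 70.79, and over the array loci, 63.33 against 49.47. The same library had the highest value of its group at the Gm9046 locus, 10.17 CPM against 6.887. These 3 values share loci and are not independent. At the Gm9030 locus (chr10:118252150-118253773), replicate 5 of Tph2+/- C had 6.2 CPM against a group median of 4.005. The reason for these values was not tested.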

How the results depend on the processing

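The number of loci called lower in Tph2-/- against Tph2+/+ mice was 21 to 28 over the alternatives, against 25. The 10 named called loci were called in 110 of 110 alternative values, among which the fit with only the groups of the contrast was not counted. For Tph2+/- against Tph2+/+ the 4 calls became 1 with all 48 libraries. For Tph2-/- against Tph2+/- the 7 calls became 11 when Tph2-/- MS libraries 2 and 3, not 3 and 7, were omitted, 13 with DESeq2, 12 with total counts alone as scaling and 4 with only the groups of the contrast in the fit. Within MS the 14 calls became 5 without S18 to S26, which left 3 Tph2-/- and 5 Tph2+/+ libraries, and 5 with only the groups of the contrast. DESeq2 called 2 loci for MS against C where edgeR called 0, and 1226 against 24 over the whole table. The MS difference in the sum over all 545 loci turned with scaling. With total counts alone it was -126.9 CPM for wildtype, 36.88 for heterozygous and -52.57 for null mice, and -0.03231 in Tph2+/+ and -0.01916 in Tph2-/- mice as mean log2(CPM + 0.1). With total counts alone, the sum over the called loci gave 0.835 CPM in Tph2+/+ mice (exact permutation p = 0.885, adjusted 0.885, against 13.79 CPM with TMM) and 7.515 CPM in Tph2+/- mice (exact permutation p = 0.006527, adjusted 0.03916). As mean log2(CPM + 0.1), the Tph2+/+ difference was 0.07046 (exact permutation p = 0.351). The cause of these changes was not tested. In Tph2-/- mice the sum over the called loci differed by 10.17 CPM (exact permutation p = 0.06327, adjusted 0.1898) when libraries 2 and 3 of MS, not 3 and 7, were omitted. With all 48 libraries, replicate 3 included, that difference was 20.3 CPM (exact permutation p = 0.01616, adjusted 0.09697). Without S18 to S26 it was 10.84 CPM (exact permutation p = 0.1273, adjusted 0.2036). As mean log2(CPM + 0.1) it was 0.3373 (exact permutation p = 0.03064, adjusted 0.1838).

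With the replicate number as a block, the calls were 27 for Tph2-/- against Tph2+/+, 3 for Tph2+/- against Tph2+/+, 6 for Tph2-/- against Tph2+/-, 20 within C, 12 within MS and 0 for the rearing comparisons. Over 120 pairs of libraries with the same number, deviations from the group means correlated at -0.226 to 0.359 with a median of 0.019, against -0.001 for different numbers, and 8 of 48 libraries correlated best with their own number. The labels give no more than the number, so a litter or processing step shared by these samples could not be checked. Depth limits loci with few counts, since called loci had mean counts of 7.917 to 142.1 per library.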
